A study of Mus musculus with 6 samples.

Results

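The genes described here are 10 integrin chains, *Itgal*, *Itgam*, *Itgax*, *Itgb2*, *Itga4*, *Itgb7*, *Itgb1*, *Itga6*, *Itgb4* and *Itga11*, out of 19937 genes that the array pairs with a probe set of their own. They were chosen by name as chains of leukocyte integrins and of laminin and collagen receptors, and each has exactly 1 probe set that carries no other symbol. The samples were plasmacytoid dendritic cells (pDCs) sorted as B220+ CD11c+ cells from bone marrow cultures grown in Flt-3L at 25 ng/ml. KO cultures were treated with 1 µM tamoxifen during differentiation and WT cultures were the untreated parts of the same cultures, from 3 mice, so there were 3 KO and 3 WT arrays. Every mouse was C57BL/6 with the genotype Gfi1f/f; Gfi1bf/f; ERCre, so the WT cells carried the same floxed alleles and the same tamoxifen-inducible Cre as the KO cells. Tamoxifen, activated Cre and loss of *Gfi1* and *Gfi1b* therefore came together in the KO group and cannot be told apart. The study's own genotyping found the deletion to be incomplete, and no source used here gives the age of the mice.

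Values are intensities of Affymetrix Mouse Gene 1.0 ST arrays on a linear scale. Differences are log2 intensity in KO minus WT, from a fit over the 21640 probe sets with 1 gene symbol, and a difference was called at a Benjamini-Hochberg adjusted p under 0.05. No probe set passed that threshold in the comparison of KO with WT arrays. The targeted genes had intensities of 60.5 to 67.1 (*Gfi1*) and 194 to 279 (*Gfi1b*) in KO arrays, against 43.3 to 56.1 (*Gfi1*) and 155 to 179 (*Gfi1b*) in WT arrays. Their single probe sets summarise whole transcripts and check nothing about the deletion. The 95th percentile of 1204 probe sets of olfactory and vomeronasal receptor genes, which blood cells are not known to use, was 64.1 to 71.3 in KO arrays and 56.0 to 58.2 in WT arrays, and is taken here as the upper end of background. The median difference of these receptor probe sets was 0.14 and that of the 21640 probe sets 0.03 (quartiles -0.10 to 0.15). *Gfi1* lay within background in every KO and WT array, so its higher KO values do not show a rise of its transcript. *Gfi1b* lay above background in every array. Of 14 pDC marker genes 12 were measured, and the mean level of each lay above background.

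Integrins are receptors of an alpha and a beta chain that span the cell membrane and tie the cytoskeleton to ligands outside the cell. Leukocytes carry the beta 2 integrins, made of the chain encoded by *Itgb2* and an alpha chain such as that of *Itgal* (CD11a), *Itgam* (CD11b) or *Itgax* (CD11c), and the alpha 4 integrins, made of the *Itga4* chain with the beta chain of *Itgb7* or *Itgb1*. These bind ligands on other cells, such as ICAM-1, VCAM-1 and MAdCAM-1, and serve in arrest on vessel walls and contact between cells. The alpha 6 chain of *Itga6* binds laminins of basement membranes, paired with the beta 4 chain of *Itgb4* in epithelia or with beta 1 elsewhere, and the alpha 11 chain of *Itga11*, paired with beta 1, binds fibrillar collagen on fibroblasts. CD11c is part of the definition of these cells, as it was used in the sort, while CD11b is a marker of myeloid cells that mouse pDCs carry little of.

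None of the 10 chains passed the adjusted p (0.69 to 0.98 in limma, against a background of 0% of the 21640 probe sets called), nor did any in a fit that took the mouse as a block (0.15 to 0.82, background 0%). By their means 6 chains were lower and 4 were higher in KO pDCs, with a median difference of -0.20. At an unadjusted p under 0.05, *Itgb4* was higher, where 5.14% of the probe sets were higher, and no member was lower, where 1.9% were. With the median of every array set to the same value, the split of the probe sets at this threshold was 581 higher and 827 lower, against 1113 higher and 412 lower in the values as deposited. With the mouse as a block, *Itgam*, *Itga6* and *Itga11* were lower at this threshold, where 5.99% of the probe sets were, and *Itgb4* was higher, where 7.46% were. Lower in KO in all 3 mice were *Itgam*, *Itgb2*, *Itgb1*, *Itga6* and *Itga11* (5 of 10, against 17.4% of the probe sets), and higher in all 3 were *Itga4*, *Itgb7* and *Itgb4* (3 of 10, against 21.3%).

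**Figure D1:**
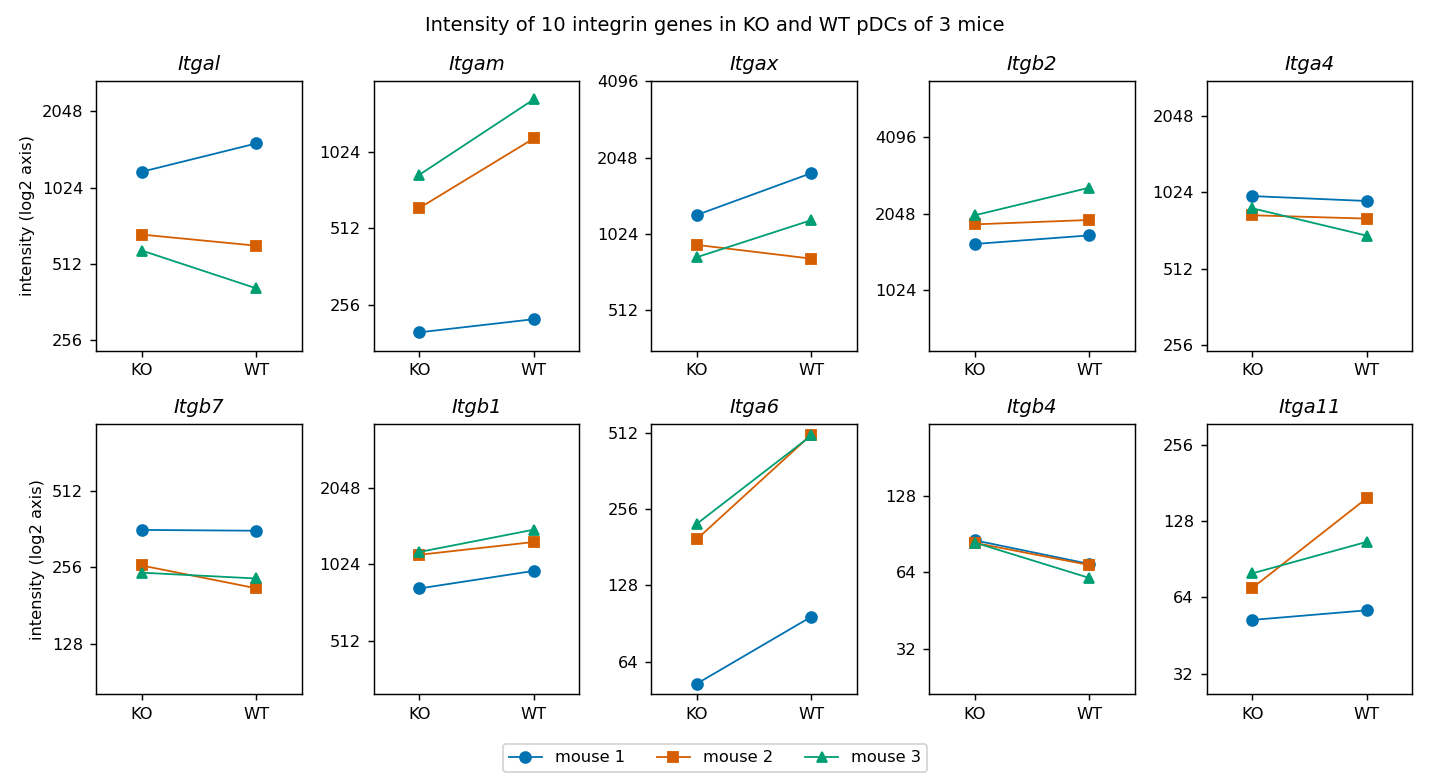
Intensity of each of the 10 integrin genes, on a log2 axis of the same span in every panel, in the KO and WT arrays, with a line joining the 2 cultures of a mouse. Mouse 1 lies apart from mice 2 and 3 for *Itgal*, *Itgam* and *Itga6*, and *Itgb4* is the gene whose KO values (83.7 to 85.7) all lie above its WT values (60.9 to 69.2).

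*Itgam*, the alpha chain of CD11b/CD18, the complement receptor of myeloid cells, had intensities of 199, 615 and 832 in the KO arrays of mice 1, 2 and 3, against 224, 1157 and 1650 in the WT arrays. The KO and WT values overlapped, because mouse 1 was low in both cultures, while within every mouse the KO culture was the lower one. The means were 549 ± 322 in KO and 1010.3 ± 724 in WT pDCs (SD, n = 3 mice), and the difference was -0.69 (standard error 0.87, adjusted p = 0.87 from limma). Within mice 1, 2 and 3 it was -0.17, -0.91 and -0.99, so the mouse with the lowest level also had the smallest difference. With the mouse as a block the standard error was 0.17 and the adjusted p 0.30.

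Markers of other cell types moved with *Itgam*. The 11 measured macrophage and monocyte markers summed to 6232, 26430 and 29292 in the KO arrays of mice 1, 2 and 3, against 7180, 32366 and 33260 in the WT arrays, and all 11 had a mean difference below 0 (median -0.32). The largest was that of *Mrc1*, the mannose receptor of macrophages, at -0.66. The 10 neutrophil markers summed to 579, 2651 and 5029 in the KO arrays of mice 1, 2 and 3, against 1413, 9074 and 11686 in the WT arrays, and 8 of 10 had a mean difference below 0 (median -1.25), with *Ngp*, a neutrophil granule protein, at -2.26. The other 2, *Mpo* (0.44) and *Elane* (0.12), enzymes of the granules of early neutrophils, lay above 0. The mean level of each of these 21 markers lay above background. The 12 pDC markers summed to 45138, 32560 and 29461 in the KO arrays of mice 1, 2 and 3, against 47276, 25002 and 19470 in the WT arrays. The pDC sum was thus higher in KO in mice 2 and 3 and lower in mouse 1 (log2 difference -0.067). On the mean of the mice, 12 of 12 markers had a difference above 0 (median 0.30, against 0.03 over all probe sets). Within mice 1, 2 and 3 the median of the 12 was -0.11, 0.39 and 0.75. The largest mean difference was that of *Ly6d*, a surface protein of lymphoid progenitors and pDCs, at 0.76. The part of these cells in the values of *Itgam* was not tested, and in sorted cells measured in bulk, fewer cells of a type and less RNA per cell cannot be told apart.

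**Figure D2:**
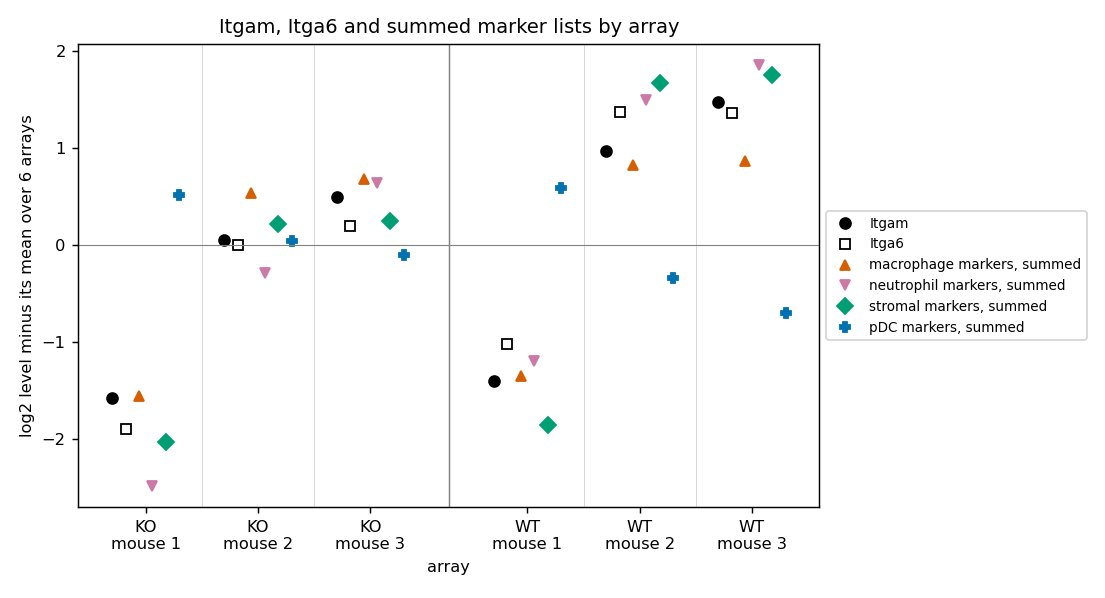
Log2 intensity of *Itgam* and *Itga6* and log2 of the summed intensity of 4 marker lists, each minus its own mean over the 6 arrays, by array. *Itgam*, *Itga6* and the macrophage, neutrophil and stromal sums are lowest in the arrays of mouse 1 in both groups, and the pDC sum is highest there.

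*Itgax*, whose protein CD11c was a criterion of the sort, had intensities of 1217, 926 and 829 in the KO arrays of mice 1, 2 and 3, against 1778, 818 and 1160 in the WT arrays. The groups overlapped and the mice did not go one way, with differences of -0.55, 0.18 and -0.48 in mice 1, 2 and 3. The mean difference was -0.28 (standard error 0.30, adjusted p = 0.84 from limma). *Itgam* and *Itgax* are next to each other among the protein-coding genes of the mouse genome, and both alpha chains pair with the *Itgb2* product, yet mouse 1 had the lowest *Itgam* and the highest *Itgax* intensity of the mice in KO and in WT cultures.

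The bases before the start of transcription of these neighbours are shown as a description, and their part in the level of either gene was not tested. They were taken from RefSeq promoter windows of GRCm38.p6, which hold 6 of the 10 members (*Itgam*, *Itgax*, *Itga4*, *Itgb7*, *Itgb1* and *Itga11*), and each run is the 250 bases upstream of the start that the window is built on, on the plus strand. The RefSeq gene record of *Itgax* begins slightly upstream of that start, inside the run shown. Capitals mark GAGGAA, the purine-rich core that PU.1, an ETS factor of myeloid and dendritic cells, binds, and AATC, the core of GFI1 and GFI1B sites, on either strand (the other strand reads TTCCTC and GATT). The letters of these motifs do not overlap in the windows shown.
Itgam, chr7:128062390-128062639: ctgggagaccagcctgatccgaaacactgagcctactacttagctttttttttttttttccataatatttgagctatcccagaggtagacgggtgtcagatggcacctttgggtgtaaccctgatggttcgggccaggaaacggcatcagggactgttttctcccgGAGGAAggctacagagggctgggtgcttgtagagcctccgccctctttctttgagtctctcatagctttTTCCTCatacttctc
Itgax, chr7:128129300-128129549: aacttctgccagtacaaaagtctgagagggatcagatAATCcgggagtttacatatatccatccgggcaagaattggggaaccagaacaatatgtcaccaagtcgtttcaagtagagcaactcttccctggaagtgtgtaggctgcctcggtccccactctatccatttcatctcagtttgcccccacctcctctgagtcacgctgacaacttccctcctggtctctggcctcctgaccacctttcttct
The *Itgam* window holds GAGGAA at 2 places, beginning 84 bases upstream and, on the other strand, 15 bases upstream, and no AATC. The *Itgax* window holds AATC beginning 213 bases upstream and no GAGGAA. Other forms of the PU.1 site were not searched for, so a window without GAGGAA may still hold such sites. Of the other 4 windows, those of *Itgb1* and *Itga11* hold GAGGAA and those of *Itga4* and *Itgb7* hold AATC. Over 32851 promoter windows of the same length, 23.3% hold GAGGAA and 69.0% hold AATC, and no binding was measured here.

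*Itgal*, the alpha chain of LFA-1, which binds ICAM-1, had intensities of 1181, 668 and 578 in the KO arrays of mice 1, 2 and 3, against 1527 (mouse 1), 604 (mouse 2) and 411 (mouse 3) in the WT arrays. The groups overlapped and the order of the mice was the same in both, with mouse 1 highest and mouse 3 lowest. The difference was 0.09 (standard error 0.52, adjusted p = 0.98 from limma), and -0.37, 0.15 and 0.49 in mice 1, 2 and 3. *Itgb2*, the beta chain that all 3 of these alpha chains need to reach the surface, had intensities of 1558, 1862 and 2021 in the KO arrays of mice 1, 2 and 3, against 1684, 1937 and 2596 in the WT arrays. It was slightly lower in the KO culture of every mouse, by a mean of -0.18 (standard error 0.19, adjusted p = 0.84 from limma), and the groups overlapped. The WT level of *Itgb2* varied by 1.54-fold between mice, against 7.35-fold for *Itgam* and 3.72-fold for *Itgal*.

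*Itga4*, the alpha chain of VLA-4 and of alpha 4 beta 7, had intensities of 988, 830 and 884 in the KO arrays of mice 1, 2 and 3, against 945, 805 and 690 in the WT arrays. The difference was 0.16 (standard error 0.14, adjusted p = 0.81 from limma), above 0 in every mouse but with overlapping groups. *Itgb7*, whose chain directs alpha 4 cells to the gut through MAdCAM-1, had intensities of 360 (mouse 1), 261 (mouse 2) and 244 (mouse 3) in the KO arrays, against 357, 212 and 232 in the WT arrays. Its difference was 0.13 (standard error 0.24, adjusted p = 0.92 from limma), and within mice 1, 2 and 3 it was 0.01, 0.30 and 0.08. *Itgb1*, which pairs with the alpha 4, alpha 6 and alpha 11 chains, had intensities of 822, 1116 and 1145 in the KO arrays of mice 1, 2 and 3, against 964, 1253 and 1402 in the WT arrays. Its difference was -0.23 (standard error 0.19, adjusted p = 0.80 from limma, and 0.37 with the mouse as a block). The 3 mice lay close together, at -0.23, -0.17 and -0.29, an SD of 0.06 that was the smallest of the 10 members.

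*Itga6*, the laminin-binding alpha 6 chain, had intensities of 52.5, 195 and 224 in the KO arrays of mice 1, 2 and 3, against 96.3, 503 and 499 in the WT arrays. The groups overlapped because the WT culture of mouse 1 lay below the KO cultures of mice 2 and 3, and its KO culture lay within background. The means were 157 ± 91.8 in KO and 366 ± 234 in WT pDCs (SD, n = 3 mice), a 2.19-fold lower level in KO on the mean of log2 values, and the difference was -1.13 (standard error 0.83, adjusted p = 0.78 from limma). Within mice 1, 2 and 3 it was -0.88, -1.37 and -1.16. With the mouse as a block the standard error was 0.12 and the adjusted p 0.15. Without both arrays of mouse 1 the difference was -1.26 (standard error 0.12) and the adjusted p was 0.016, where 0.499% of the probe sets were called. *Itga6* stands in the study's list of genes that differed by at least 2-fold on these same arrays, so its size is not independent evidence, and 0.273% of the probe sets were lower by at least 2-fold. No member was higher by at least 2-fold, where 0.0231% of the probe sets were.

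The summed stromal markers were lower in KO in every mouse, as *Itga6* was, but in mouse 1 by less than *Itga6*. The 12 markers of stromal cells and fibroblasts summed to 688, 3253 and 3320 in the KO arrays of mice 1, 2 and 3, against 772, 8918 and 9444 in the WT arrays, and 12 of 12 had a difference below 0 (median -0.95), with *Lox*, a collagen crosslinking enzyme, at -1.57. The macrophage and neutrophil sums given for *Itgam* ran the same way. So did the sum of the 4 measured megakaryocyte markers, which differed by -0.75, -0.77 and -0.76 in mice 1, 2 and 3. Of these 4 markers, 3 had a mean difference below 0 and 1 above (median -0.06). The mean level over the 6 arrays of every one of the 12 stromal markers lay above background. In mouse 1, *Lox*, *Postn*, *Dcn*, *Pdgfra* and *Pdgfrb* lay within background in both arrays, and *Sparc*, *Acta2* and *Col6a3* in the KO array. *Col1a1*, *Col1a2*, *Col3a1* and *Tagln* lay above it in both arrays. The part of such cells in the values of *Itga6* was not tested. In mouse 1 the log2 difference of the stromal sum was -0.17 and that of the neutrophil sum -1.29. Among stromal markers in this mouse, *Sparc* was at -0.93, *Acta2* at -0.78 and *Postn* at -0.69. *Col3a1* (0.29), *Col1a1* (0.25) and *Col1a2* (0.15) lay above 0, and the others lay between -0.57 (*Dcn*) and -0.007 (*Tagln*). The value of -0.88 for *Itga6* in this mouse rests on a KO intensity within background, as do those of *Sparc*, *Acta2* and *Postn*, so none is an exact fold.

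*Itgb4*, the beta 4 chain, whose partner is alpha 6, had intensities of 85.7, 83.7 and 84.0 in the KO arrays of mice 1, 2 and 3, against 69.2, 68.5 and 60.9 in the WT arrays. Its KO values lay above its WT values with no overlap, as did those of 10.2% of the probe sets. The means were 84.5 ± 1.07 in KO and 66.2 ± 4.58 in WT pDCs (SD, n = 3 mice), a 1.28-fold higher level in KO. The difference was 0.35 (standard error 0.09, adjusted p = 0.69 from limma, 0.31 with the mouse as a block), and 0.31, 0.29 and 0.46 in mice 1, 2 and 3. An exact two-sided permutation test of the 6 values gave p = 0.1, the smallest that 3 arrays against 3 allow. These levels were close to the upper end of background in each array (64.1 to 71.3 in KO and 56.0 to 58.2 in WT arrays). The receptor probe sets were also higher in KO arrays, by a median of 0.14, and 12.2% of them were higher at an unadjusted p under 0.05. The part of this shift in the value of *Itgb4* was not tested. *Itga6* and *Itgb4*, the chains of one laminin receptor, thus had differences of opposite sign in each mouse.

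*Itga11*, the collagen-binding alpha 11 chain of fibroblasts, had intensities of 52.1, 69.7 and 79.6 in the KO arrays of mice 1, 2 and 3, against 56.9, 157 and 106 in the WT arrays. Both arrays of mouse 1 and the KO array of mouse 2 lay within background, and the groups overlapped. The difference was -0.57 (standard error 0.38, adjusted p = 0.75 from limma), and -0.13, -1.18 and -0.41 in mice 1, 2 and 3. With the mouse as a block the adjusted p was 0.33. The stromal sum differed by -0.17, -1.45 and -1.51 in the same mice, and its part in *Itga11* was not tested.

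**Figure D3:**
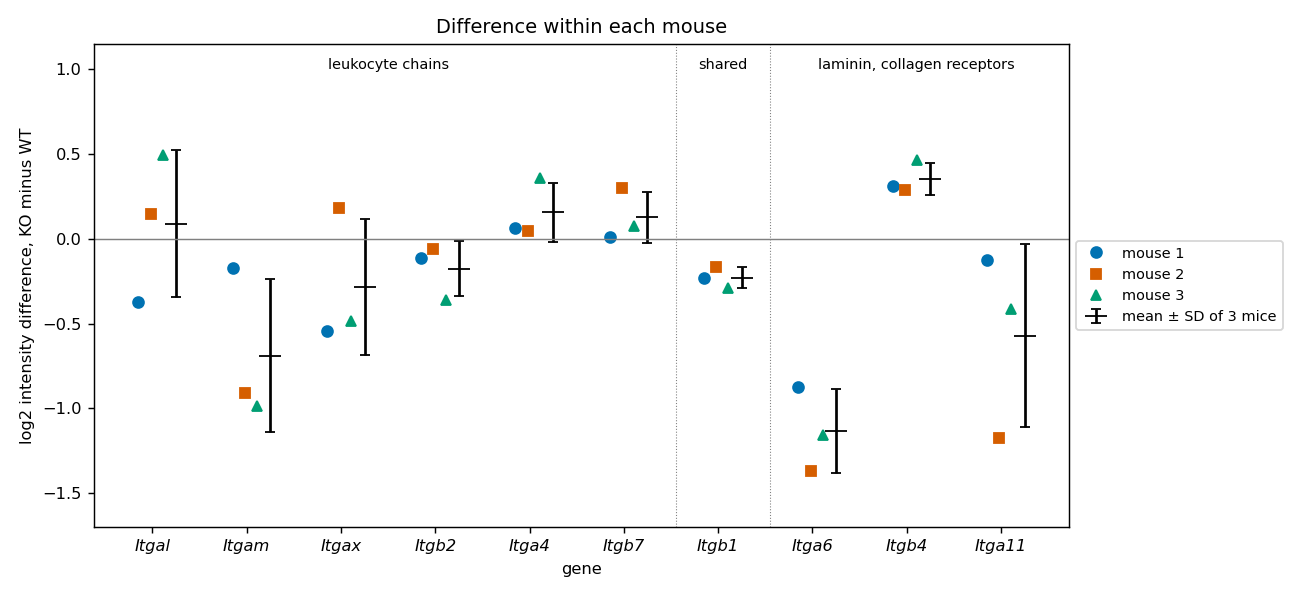
Log2 intensity difference, KO minus WT, of the 10 integrin genes. Each symbol is 1 mouse, and each bar is the mean ± SD of 3 mice. *Itga6* lies between -1.37 and -0.88 and *Itgb4* between 0.29 and 0.46, while *Itgal* and *Itgax* have mice on both sides of 0.

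The laminin and collagen receptor chains were set against the leukocyte chains by their median difference. The 3 matrix receptor chains had a median of -0.57 (from -1.13 for *Itga6* to 0.35 for *Itgb4*) and the 6 leukocyte chains one of -0.04 (from -0.69 for *Itgam* to 0.16 for *Itga4*), a gap of -0.53. *Itgb1* pairs with chains of both classes and was left out of this gap. It was 0.02, -1.27 and -0.27 in mice 1, 2 and 3, an SD of 0.68 that is larger than the gap. The ranges of the classes overlapped, with *Itgam* below *Itga11* and *Itgb4* above every leukocyte chain. The classes therefore did not differ beyond the spread between mice and between their own members, and no test was made since the members were chosen with results known.

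The mice differed more than the treatments for most of these genes. Of the sum of squares of the 6 log2 values, the mouse held 88.2% for *Itgam*, 92.0% for *Itgal*, 91.1% for *Itgb7* and 76.3% for *Itga6*. It held over 50% for 9 of the 10 members, and *Itgb4* was the exception with 6.0% for the mouse and 89.8% for the treatment. The median share of the mouse was 76.8% over the members and 49.0% over the 21640 probe sets, where that of the treatment was 15.5%, given as a description. A split by 3 mice takes a larger share than a split by 2 groups even where neither has an effect. In both groups, mouse 1 had the highest level of the 3 mice for *Itgal*, *Itgax*, *Itga4*, *Itgb7* and *Itgb4* and the lowest for *Itgam*, *Itgb2*, *Itgb1*, *Itga6* and *Itga11*. In log2 units, its WT culture lay at -2.62 relative to the mean of the other WT cultures for *Itgam*, at -2.38 for *Itga6* and at 1.62 for *Itgal*. The differences of mouse 1 from the other mice in pDC, macrophage and stromal markers, given above, run the same way in KO and WT cultures, and their part here was not tested.

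The genes most like *Itgam* and *Itga6* were sought by the mean absolute difference between log2 profiles over the 6 arrays, each centred on its own mean, among 11490 genes with a mean log2 level above background. Nearest to *Itgam* were *Gstm2* (0.09), *Ms4a4a* (0.10), *Mmp9* (0.11), *Rin2* (0.11) and *Clec4a2* (0.11), among them a gelatinase of neutrophils and macrophages (*Mmp9*) and a C-type lectin of myeloid cells (*Clec4a2*). *Ms4a4a* had intensities of 121, 418 and 669 in the KO arrays of mice 1, 2 and 3, against 163, 758 and 1077 in the WT arrays. Nearest to *Itga6* were *Col6a3* (0.14), *App* (0.15), *Myc* (0.16), *Fat1* (0.18) and *Igfbp7* (0.20), among them a chain of collagen VI (*Col6a3*) and an atypical cadherin (*Fat1*). *Col6a3*, which is also one of the stromal markers, had 47.3, 132 and 127 in the KO arrays of mice 1, 2 and 3, against 64.2, 367 and 348 in the WT arrays. *Itgam* was at rank 23 in likeness to *Itga6* (0.26), while *Itgb2*, the partner of *Itgam*, was at rank 1656 in likeness to *Itgam* (0.83). This measure also counts how far the arrays spread, and *Itgb2* had the same order of mice as *Itgam* in both groups. In each of these 10 nearest genes the array of mouse 1 was the lowest of its group, in KO and in WT. The choice by likeness brings this with it, because *Itgam* and *Itga6* were themselves lowest in mouse 1. The 6 arrays from 3 mice are few points for such a likeness.

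The array measured 27 integrin chains, and the 17 outside the members had a median difference of 0.05, with 8 lower and 9 higher in KO and 8 within background. None passed the adjusted p in limma. *Itgb6*, an epithelial partner of alpha v, was higher at an unadjusted p under 0.05 (0.30), at intensities of 22.9 to 23.5 in KO and 18.0 to 19.7 in WT arrays, which lie within background. *Itgb5*, a vitronectin-binding beta chain, had 88.1, 380 and 377 in the KO arrays of mice 1, 2 and 3, against 84.9, 742 and 654 in the WT arrays, a difference of -0.57 (standard error 0.98). *Itgav*, its alpha v partner, was at -0.48 (standard error 0.59) and *Itga1*, a collagen-binding chain whose level lay within background, at -0.45 (standard error 0.33). *Itgb5* and *Itgav* thus had low levels in mouse 1 in both cultures, as *Itga6* did.

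Among ligands of the leukocyte integrins, 11 of 12 were measured and their median difference was -0.02. *Fn1*, fibronectin, the matrix ligand of alpha 4 beta 1, had 70.6, 805 and 1132 in the KO arrays of mice 1, 2 and 3, against 87.5, 2433 and 3764 in the WT arrays, and differed by -1.21 (standard error 1.69). It is in the study's list of genes chosen on these arrays. *F11r*, the junctional adhesion molecule that LFA-1 binds, was at -0.25, and *Jam3*, a ligand of CD11b, was lower at an unadjusted p under 0.05 (-0.27) at a level within background. Of 11 laminin chains 10 were measured, with a median of 0.03 and 6 of the 10 within background. *Lamc1*, the gamma 1 chain of most laminins, was lower at an unadjusted p under 0.05, with 129, 134 and 166 in the KO arrays of mice 1, 2 and 3, against 167, 287 and 280 in the WT arrays (-0.74, standard error 0.23). *Lamb1*, its beta 1 partner, was at -0.76 and *Lama4* at -0.69, the mean of *Lama4* within background.

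**Figure D4:**
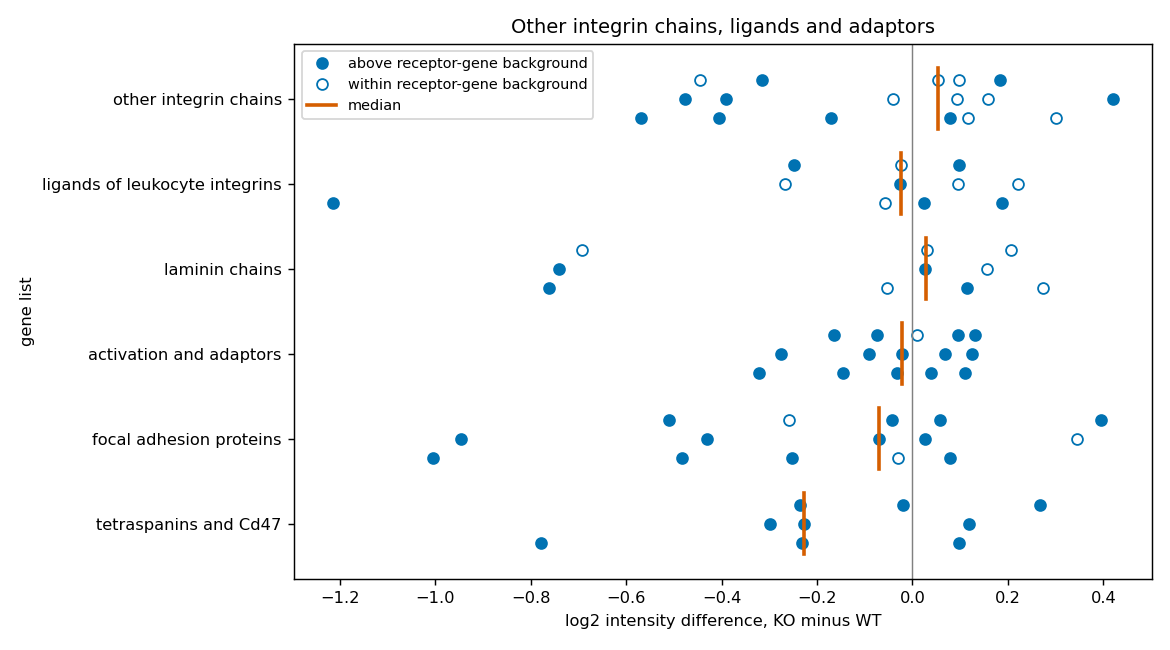
Log2 intensity difference, KO minus WT, of the genes of 6 lists around the integrins. Each circle is 1 gene, open where its mean level lies within the background set by receptor genes, and the bar is the median of the list. The medians lie between -0.23 and 0.05, and *Fn1* has the lowest value, -1.21.

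Proteins that switch integrins on from inside the cell and adaptors of blood cells had a median of -0.02 over 15 genes. *Ptk2b*, the kinase PYK2, was lower at an unadjusted p under 0.05, with 541, 567 and 578 in the KO arrays of mice 1, 2 and 3, against 724, 678 and 704 in the WT arrays, and no overlap of the groups (-0.32, standard error 0.09, adjusted p = 0.69 from limma). No overlap with KO below WT was found in 4.65% of the probe sets. *Cyth1*, a regulator of LFA-1, was at -0.28 and *Rap1b*, a small GTPase of integrin activation, at -0.17. The 15 measured focal adhesion genes of 16 had a median of -0.07, with *Fermt2* (kindlin-2) at -1.005, *Parva* (alpha parvin) at -0.95 and *Vcl* (vinculin) at -0.51. *Fermt1*, an epithelial kindlin, was higher at an unadjusted p under 0.05 (0.34) at a level within background. The tetraspanins, which organise integrins in the membrane, and *Cd47* had a median of -0.23 over 9 genes, with *Cd81* at -0.78, *Tspan32* at -0.30 and *Cd37* at 0.27.

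Over these 6 lists, 77 of 80 genes were measured, and limma's adjusted p was passed by none of them in either fit, 2-group or blocked by mouse. At an unadjusted p under 0.05, 2 of the 77 were higher and 3 were lower, where 5.14% of all probe sets were higher and 1.9% lower. With the block 3 were higher and 18 were lower, of which 7 were focal adhesion genes, where the shares of all probe sets were 7.46% (higher) and 5.99% (lower). With mouse 1 left out, *Itgb5* (-0.88), *Lama4* (-1.11), *Lamb1* (-1.03), *Fermt2* (-1.33) and *Parva* (-1.32) passed the adjusted p, where 0.499% of the probe sets did. *Fermt2* and *Parva* are in the study's list chosen on these arrays. In mice 2 and 3 the log2 differences of the summed markers were -1.45 and -1.51 for stromal cells, -1.78 and -1.22 for neutrophils and -0.29 and -0.18 for macrophages, and their part in these values was not tested. Of the other marker lists, conventional dendritic cell markers had a median of -0.04 over 8 genes (*Clec9a* at 0.57), B lineage markers -0.11 over 7 (*Ebf1* at -0.69), NK and T cell markers 0.12 over 9 (*Ncr1* at 0.52), megakaryocyte markers -0.06 over 4 (*Pf4* at -0.99) and endothelial and epithelial markers 0.12 over 9 (*Kdr* at 0.47). Of these 9 endothelial and epithelial markers, 6 lay within background. The megakaryocyte sum differed by -0.75, -0.77 and -0.76 in mice 1, 2 and 3. The B lineage sum differed by 0.31, -0.61 and -0.36, and the NK and T cell sum by 0.37, -0.18 and -0.14. These sums were lowest in mouse 1 in both groups. The conventional dendritic cell sum and the endothelial and epithelial sum were highest there. The part of these cells in the values of the members was not tested.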

How the data were processed

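RNA of pDCs sorted from 3 KO and 3 WT cultures (200 ng an array) was hybridised to Affymetrix Mouse Gene 1.0 ST arrays. The authors deposited a linear intensity for each of 34760 probe sets (range 3.07 to 19106). How background was corrected and probe sets were summarised and normalized is in none of the sources used here, and the distributions of the 6 columns are close to each other, with medians of 72.4 to 72.9 in KO and 69.0 to 70.5 in WT arrays. The number of arrays limits the precision.

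The log2 of each intensity was used without further normalization. Of the probe sets, 21640 have 1 gene symbol in the platform annotation, 1321 several and 11799 none. *Itgam* shares 2 further probe sets with another gene, which were left out. The 21640 were fitted as 2 groups (limma 3.58.1 with lmFit and eBayes, R 4.3.3) with two-sided tests, the Benjamini-Hochberg adjustment, a threshold of 0.05 and no filter on dim probe sets. The labels pair the arrays by mouse, and with group means removed, every KO array was most like the WT array from the same mouse (r over probe sets of 0.81, 0.51 and 0.67 for mice 1, 2 and 3). The unpaired fit was the main one, since the methods state no paired fit for the arrays, and the fit blocked by mouse was run beside it. The p-values of the unpaired fit set a difference against the spread between the 3 mice, which are the same in both groups. Those of the blocked fit set it against the spread of the differences within mice. In lists, the probe set with the highest mean log2 level stood for a gene, and a gene was within background where that level lay at or below the 95th percentile of receptor genes.

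The members, gene lists and tests were chosen with earlier results of these data known. Named genes are the members, the 3 genes of each list with the largest difference and those with an unadjusted p under 0.05, the 5 genes nearest in profile to *Itgam* and *Itga6*, and the marker with the largest difference in each marker list. *Mertk*, the named neutrophil markers other than *Ngp* and the stromal markers other than *Lox* and *Col6a3* were named after their values were seen. The fit was also run on simulated data. These held no effect shared by the arrays of a mouse, so that run says nothing about arrays paired by mouse. Alternatives tried were the block, a second quantile normalization, arrays set to one median, a filter or a floor on low values, the probe sets with several or no symbol included, a trended robust fit, array weights, arithmetic means, averaged probe sets, and each array or mouse left out.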

Additional observations from a re-analysis of the deposited data

How the results depend on the processing

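No member passed the adjusted p under any alternative except without both arrays of mouse 1, when *Itga6* did, so the count of members called ran from 0 to 1. The count at an unadjusted p under 0.05, 1 in the values as reported, was 4 with the mouse as a replicate block, 3 with array weights (*Itga6*, *Itgb4* and *Itga11*, where 21.9% of the probe sets passed), and 0 to 4 with arrays or mice left out. It was 4 without the WT array of mouse 1 (14% of the probe sets) or without both arrays of mouse 1 (17.6%), and 0 without mouse 2 or 3. The block changed no call at the adjusted p. Members with no overlap of groups, 1 as reported, numbered 1 to 7 when arrays or mice were left out, with 7 without the WT array or both arrays of mouse 1, where 38.7% and 52.2% of the probe sets did not overlap. The gap between matrix and leukocyte chains ran from -1.10 without the WT array of mouse 1 to -0.10 without that of mouse 2.

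Of 190 member values under alternatives, 180 kept their direction and their side of the threshold. The block, the filter, the floor, the added probe sets, the trended fit and the averaged probe sets left the difference of each member unchanged. Its direction could not turn under these, so 180 of 190 overstates how stable the directions were. *Itgal* turned to -0.066 with arithmetic means and ran from -0.32 to 0.63 with arrays or mice left out, *Itgax* turned to 0.020 with array weights and ran from -0.55 to 0.0053, and *Itgb7* ran from -0.043 to 0.36. *Itga6* ran from -1.93 without the WT array of mouse 1 to -0.47 without its KO array, *Itgam* from -1.56 to -0.07 under the same settings, and *Itgb4* from 0.30 to 0.39. Of the 77 list genes, 0 to 5 were called when mice were left out. With 1 array of a pair left out, the difference also holds the gap between mice. The count of groups without overlap was not run with the block, the trended fit or array weights, which do not change it.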
